A study of Mus musculus with 6 samples.

Results

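The clustered keratin genes are the protein-coding keratin (Krt) and keratin-associated protein (Krtap) genes that start on mouse chromosome 11 from 99.0 to 100.5 Mb (type I cluster) or on chromosome 15 from 101.1 to 102.2 Mb (type II cluster), on build mm10. They were defined by name and position, with earlier results of these data known, and numbered 76 of the 20665 protein-coding genes of the autosomes. The type I cluster held 50 of them, 27 keratin and 23 Krtap genes, and the type II cluster held 26, among them Krt18, a type I keratin that sits beside Krt8. Contact maps came from in-situ Hi-C, in which DNA stretches that lie together in crosslinked nuclei are ligated and counted as pairs, on embryonic stem (ES) cells of mouse strain 129. Of the 6 libraries, 3 were labelled wild type (WT) and 3 were labelled GFP-CTCF-Del8 (Del8), cells with a CTCF protein that lacks zinc finger 8. The series describes its cells as expressing GFP-CTCF or that mutant and counts 3 biological replicates, and the labels do not settle whether the WT cells carry the GFP tag, whether endogenous CTCF remained or how many clones were used. Hi-C measures no expression, so the labelled cell type could not be checked against marker genes, and no keratin level is given.

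Keratins build the intermediate filaments of epithelial cells. Every filament unit pairs an acidic type I keratin with a basic type II keratin, and the genes of each type lie side by side in a cluster of their own. Krt8 and Krt18 are the partners of simple epithelia and of the first epithelium of the embryo, Krt5 and Krt14 those of basal epidermis, and Krt1 and Krt10 those of its differentiating layers. Krtap genes encode proteins that crosslink keratin filaments in the hair shaft. CTCF binds DNA through an array of zinc fingers and, with cohesin, marks domain borders, across which fewer contacts form.

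Positions of transcription starts came from RefSeq (GRCm38.p6), which had promoter entries for 57 of the 76 genes. Of these, 51 were read from the minus strand and 6 from the plus strand. The 120 bases before the start are shown for genes at places that the maps turn on: Krtap4-8 at the peak of the type I cluster, Krtap31-1 near it, Krt25 on its lower-coordinate side, Krt73 inside the type II cluster, Krt7 near its lower-coordinate edge, and Krt8 and Krt18 at its other edge. Capitals mark TATAAA in the first 4 stretches. The stretches of Krt7, Krt8 and Krt18 hold no TATAAA, and capitals there mark every CG.
Krtap4-8: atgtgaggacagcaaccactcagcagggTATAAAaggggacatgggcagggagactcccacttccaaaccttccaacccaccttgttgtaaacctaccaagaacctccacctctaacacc
Krtap31-1: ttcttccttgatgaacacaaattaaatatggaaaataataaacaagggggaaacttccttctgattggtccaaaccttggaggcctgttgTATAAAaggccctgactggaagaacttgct
Krt25: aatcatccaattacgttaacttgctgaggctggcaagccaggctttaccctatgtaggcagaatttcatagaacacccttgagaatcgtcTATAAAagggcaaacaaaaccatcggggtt
Krt73: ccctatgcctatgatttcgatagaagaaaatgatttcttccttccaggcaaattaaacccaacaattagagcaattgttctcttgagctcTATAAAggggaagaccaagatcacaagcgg
Krt7: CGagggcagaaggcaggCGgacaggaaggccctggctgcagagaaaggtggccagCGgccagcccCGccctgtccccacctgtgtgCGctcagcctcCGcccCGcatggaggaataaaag
Krt8: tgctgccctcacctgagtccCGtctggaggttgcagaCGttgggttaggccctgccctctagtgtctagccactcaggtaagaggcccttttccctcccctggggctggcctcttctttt
Krt18: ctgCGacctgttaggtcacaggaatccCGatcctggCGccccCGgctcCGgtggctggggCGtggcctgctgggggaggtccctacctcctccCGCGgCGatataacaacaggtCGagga

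The letters differed between the blocks of the clusters. TATAAA on the gene's strand, starting 40 to 20 bases before the start, was found in 17 of 21 Krtap promoters (81.0%), in 27 of 42 promoters of the type I cluster as a whole (64.3%) and in 3 of 16 of the type II cluster (18.8%). Within type I it was 7 of 11 (63.64%) for the lower-coordinate keratins and 3 of 10 (30%) for the higher-coordinate ones. Over all 32851 promoters of the table the share was 1.99%, but among other genes of the 2 windows it was 11 of 38 (28.95%). The other genes of the windows include genes with Gm symbols that start in the Krtap bins. They were not counted apart from neighbours outside the clusters. In Krtap31-1, Krt25 and Krt73 the match lay in that window, and in Krtap4-8 it lay farther upstream. The 300-base promoters of the members held a median of 3.5 CG against 7 over all promoters, and Krt7 and Krt18 had the most, 21 and 17.

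The 76 starts, taken as the lower coordinate of each gene, fell into 34 bins of 50 kb, so neighbouring keratins share a value. The libraries held from 24038030 contacts (WT replicate 1) to 66266759 (Del8 replicate 1), and the member bins that passed the coverage screen held from 486 to 2438 contacts in WT replicates 1 and 2 and from 1232 to 5253 in the other libraries. The bin of Krtap4-13 held 315, 303 and 809 contacts in WT and 1320, 1020 and 387 in Del8. It did not pass, since the scaled coverage of Del8 replicate 3 was 0.483 of the third highest, below the 0.5 required. WT replicates 1 and 2, at 0.546 and 0.504, were just above it. Thus 75 genes in 33 bins were tested. The bin of Krt6a and Krt6b, keratins of stressed and hair follicle epithelium, passed narrowly, since WT replicate 1 held 486 contacts there and 7 of its 14 tested bin pairs were at 0 in that library. Results that rest on this bin are also given without it or without that library.

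The maps show a landscape that the libraries share. The insulation score of a bin is a log2 ratio. It compares the balanced contact that passes over the bin, between the 500 kb on either side, with the chromosome's mean. A domain interior thus scores high and a boundary low. Neighbouring bins are scored from largely the same bin pairs, so their scores and calls are not separate results. In WT the score climbed from -0.67 ± 0.11 (SD, n = 3 here and below) at Krt222 to 1.01 ± 0.04 at the bin of Krtap4-8 and Krtap4-9 in the middle of the type I cluster. It fell again to -1.57 ± 0.12 at the bin of Krt17 and Krt42, the last keratins of the cluster. The lowest point lay 1 bin further, at chr11:100300001-100350000, where Eif1, Gast and Hap1 start, just outside the cluster. Among 1329 boundaries of the autosomes this one had the rank 4 from the lowest WT score, and it was the lowest of 99 on chromosome 11. The type II cluster had the same outline, from -0.65 ± 0.03 at Krt80 to 0.73 ± 0.04 at the Krt6 bin and down to -1.20 ± 0.15 at Krt8 and -1.41 ± 0.12 at Krt18. Its lowest point, at chr15:102050001-102100000 (Eif4b and Tns2), ranked 21 of 1329 and was the lowest of 52 on chromosome 15.

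**Figure D1:**
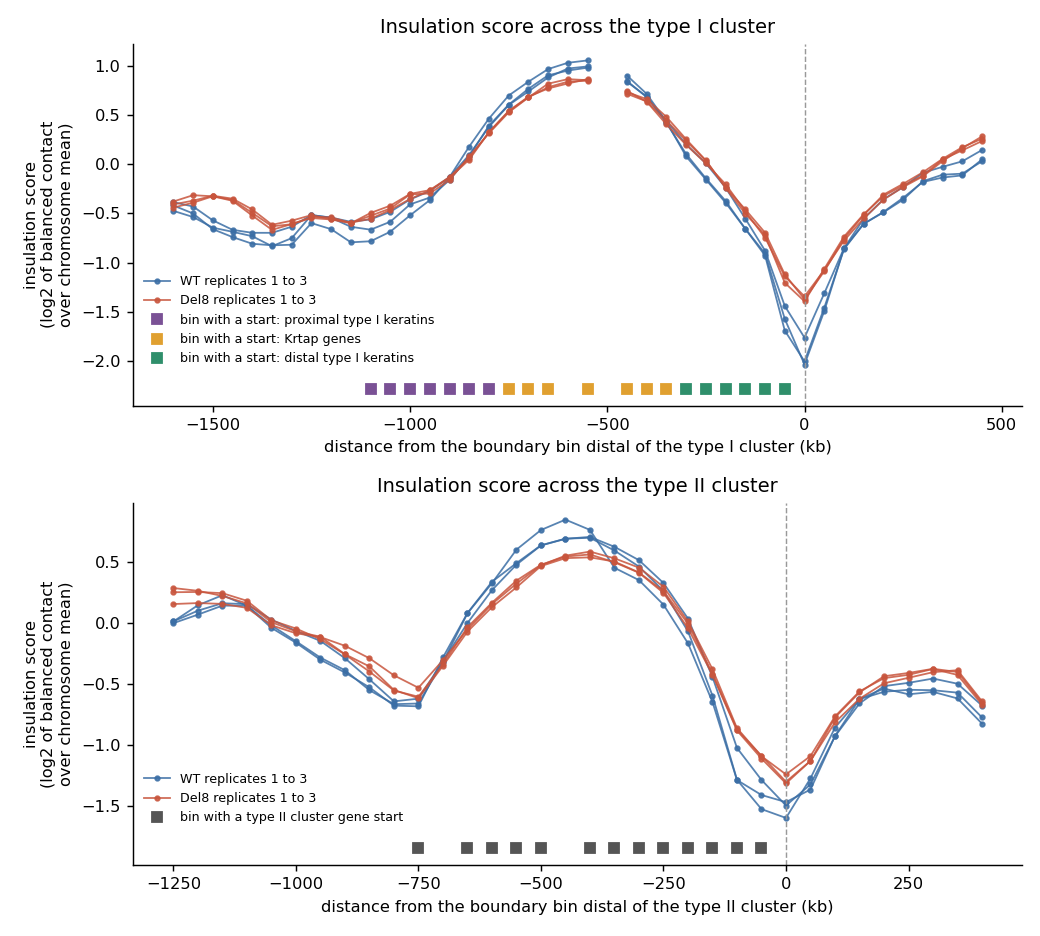
Insulation score (y axis, log2) of every 50 kb bin against its distance in kb from the boundary bin on the higher-coordinate side of each cluster (x axis, boundary at 0), 1 line per library. Squares mark bins with keratin or Krtap gene starts; the gap in the type I panel is the bin of Krtap4-13. At the boundary the 3 WT libraries lie between -2.03 and -1.76 (type I) and between -1.60 and -1.47 (type II), all below the 3 Del8 libraries.

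The boundary beside Krt17 was shallower in Del8. In WT replicates 1 to 3 its score was -2.03, -2.00 and -1.76, and the Del8 libraries scored -1.39, -1.37 and -1.34 in the same order. All Del8 libraries thus lay above all WT libraries, and WT replicate 3 was the WT library nearest to them. The difference was 0.56 with an SE of 0.058 (limma, adjusted p = 1.1e-05), or a 1.48-fold rise of the relative contact that passes over the boundary. This rise ranked 20 among the 1329 boundaries, of which 664 rose and 216 fell. In Del8 the boundary still had the rank 18 from the lowest score, and each of the 6 libraries placed it in the same bin when its own map was used. The rise was 0.39 against WT replicate 3 alone.

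The keratins of basal and stressed epidermis lie next to this boundary, and the scores of their bins rose with it. These bins share many of their bin pairs with the boundary bin, so their rises are not separate from its rise. At the bin of Krt17 (chr11:100256215-100261029, a keratin of hair follicle and injured skin) and Krt42, the score was -1.57, -1.69 and -1.44 in WT, against -1.21, -1.12 and -1.14 in Del8. The groups did not overlap, and the rise of 0.41 (SE 0.052, limma, adjusted p = 4.6e-05) was the largest of all member bins. The bin of Krt14, the basal type I keratin, and Krt16, which is induced in wounds, came next in the type I cluster, from -0.91 ± 0.02 to -0.72 ± 0.03 (difference 0.18, adjusted p = 0.00020). Krt9, the keratin of palm and sole skin, rose by 0.14 (adjusted p = 0.0033). The bin of Krt36, Krt13, Krt15 and Krt19, which includes keratins of oral, basal and simple epithelia, rose by 0.11 (adjusted p = 0.031), with WT replicate 3 among the Del8 values. Jup, whose product plakoglobin links keratin filaments to desmosomes, starts on the other side of the boundary, and its bin rose by 0.35 (adjusted p = 3.4e-05).

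The 3 blocks of the type I cluster moved differently. Of all 22022 scored bins of the autosomes, 32.5% rose and 30.5% fell. These shares are the background for each count that follows from the main fit of all 6 libraries. All 6 bins of the higher-coordinate keratins, Krt33a to Krt42, rose, by 0.10 to 0.41. They share bin pairs with one another and with the boundary, so these are not 6 separate rises. Of the 7 Krtap bins, 0 rose and 5 fell, by 0.10 to 0.15. The first Krtap bin (Krtap3-3 to Krtap9-3) went from 0.63 ± 0.05 to 0.53 ± 0.01 (difference -0.10, adjusted p = 0.018). The largest fall was at the peak itself, the bin of Krtap4-8 (chr11:99780014-99780643) and Krtap4-9, where WT scored 1.05, 0.98 and 0.99 and Del8 scored 0.85, 0.85 and 0.86 (difference -0.15, SE 0.029, limma, adjusted p = 0.00079). The falls at the bins of Krtap4-16 with Krtap9-1 and of Krtap4-6 were next, at -0.13 each. The last Krtap bin, Krtap29-1 to Krtap17-1, did not pass the test (0.43 in WT, 0.44 in Del8).

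Of the 7 bins of the lower-coordinate keratins, 3 rose and 1 fell. Krt222, the first of them, rose by 0.14 (adjusted p = 0.018), Krt24 by 0.14 and the hair root keratins Krt25, Krt26 and Krt27 by 0.11. The bin of Krt39 and Krt40, hair keratins beside the Krtap genes, fell by 0.090 (adjusted p = 0.022). Krt10, with Krt28, was at -0.33 ± 0.05 in WT and -0.28 ± 0.02 in Del8 (adjusted p = 0.18), and Krt20, an intestinal keratin that shares its bin with the corneal Krt12, was at -0.14 in both groups (adjusted p = 0.95). Over the whole type I cluster 9 bins rose, 6 fell and 5 did not pass, with a median difference of 0.031 against 0.0017 over all bins.

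These counts depended on the libraries and on the square. The share of all autosomal bins called in each of these other fits was not counted. Whether calls changed more at the keratin bins than elsewhere was thus not tested. Without WT replicate 1 the type I cluster had 3 rises and 3 falls, without Del8 replicate 1 it had 3 rises and 5 falls, and without Del8 replicate 2 it had 4 rises and 4 falls. Against WT replicate 3 alone, a fit whose spread comes from Del8, 2 rose and 2 fell. With a 250 kb square 5 bins rose and none of the Krtap falls was called (0 falls). Krt39 with Krt40 and the Krtap bins that start with Krtap3-3, Krtap2-4, Krtap4-6 and Krtap31-1 then turned positive, at 0.018, 0.043, 0.067, 0.0062 and 0.022, while Krtap4-8 stayed negative at -0.11. Under a looser screen, which keeps bins with 20 or more contacts in every library, no bin of either cluster was called. The rises at Krt17 and at the boundary were 0.35 and 0.56 with the 250 kb square and passed the test there. Under the looser screen they were 0.31 and 0.45 (limma, adjusted p = 0.25 for each).

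The type II cluster changed most at Krt8 and Krt18. Krt8 starts transcription in the 50 kb bin of Krt18, and the divergent start sites lie 23874 bp apart. At the bin of the lower coordinate of Krt8 (chr15:101996711-102004342) the score was -1.29, -1.29 and -1.03 in WT, against -0.88, -0.86 and -0.87 in Del8. At the bin of Krt18 (chr15:102028216-102032026) it was -1.41, -1.53 and -1.29 in WT, against -1.11, -1.09 and -1.09 in Del8. No WT library reached a Del8 library at either bin, and the differences were 0.33 and 0.31 (SE 0.058 and 0.049, limma, adjusted p = 0.00049 and 0.00020). WT replicate 3 was the nearest WT library at both, and against it alone the rises were 0.15 and 0.19. The adjoining bin of Krt4, Krt79 and Krt78, which includes the mucosal keratin Krt4, rose by 0.16 (adjusted p = 0.011), but stood at -0.0091 with a 1 Mb square. The boundary at Eif4b and Tns2, beyond Krt18, was at -1.47, -1.60 and -1.50 in WT, against -1.32, -1.24 and -1.30 in Del8. Its difference of 0.24 (limma, adjusted p = 0.00022) had the rank 293 from the largest rise among the 1329 boundaries. On chromosome 15 that rank was 12 of 52. With a 1 Mb square the differences at Krt8, Krt18 and this boundary were 0.052, 0.064 and 0.062, and that at Krt8 no longer passed (adjusted p = 0.11).

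The interior of the type II cluster fell on its lower-coordinate side. The largest fall was at Krt90 and Krt75, from 0.77, 0.64 and 0.64 in WT to 0.48, 0.48 and 0.47 in Del8 (difference -0.21, SE 0.036, limma, adjusted p = 0.00044). Krt84 and Krt82, hair keratins, fell by 0.20 and the hair keratins Krt81, Krt86 and Krt83 by 0.16. The Krt6a and Krt6b bin fell by 0.16 as well, and by 0.14 without WT replicate 1 (adjusted p = 0.0024). The bin of Krt7, a keratin of simple ductal epithelia, fell by 0.11 (adjusted p = 0.011). Epidermal Krt5 (0.56 ± 0.09 in WT, 0.51 ± 0.02 in Del8) and Krt1 (0.25 ± 0.09 and 0.27 ± 0.03) did not pass, with adjusted p of 0.34 and 0.66. WT replicate 1 was the lowest library at both. At Krt80, where the summed map has the boundary on the other edge of the cluster, the score was -0.65 ± 0.03 in WT and -0.58 ± 0.05 in Del8 (adjusted p = 0.074). WT replicates 1 and 3 placed that boundary 1 bin lower than the other libraries did.

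In all, 3 of 13 type II bins rose, 5 fell and 5 did not pass, with a median difference of -0.016. Without WT replicate 3 there were 5 rises. Over both clusters 12 of 33 member bins rose and 11 fell, both near the background shares of all bins given above. At bins that hold a gene start, as every member bin does, 43.3% of scores rose and 20.2% fell, so against these the members had fewer rises and more falls, a difference that was not tested. The groups did not overlap at 23 of the 33 bins, against 67.2% of all bins. Along the chromosome the rises of type I lay towards its ends and 5 of its 6 falls in the Krtap block. Those of type II lay at its higher-coordinate end alone, since Krt80 did not pass and the next keratin bin, that of Krt7, fell.

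**Figure D2:**
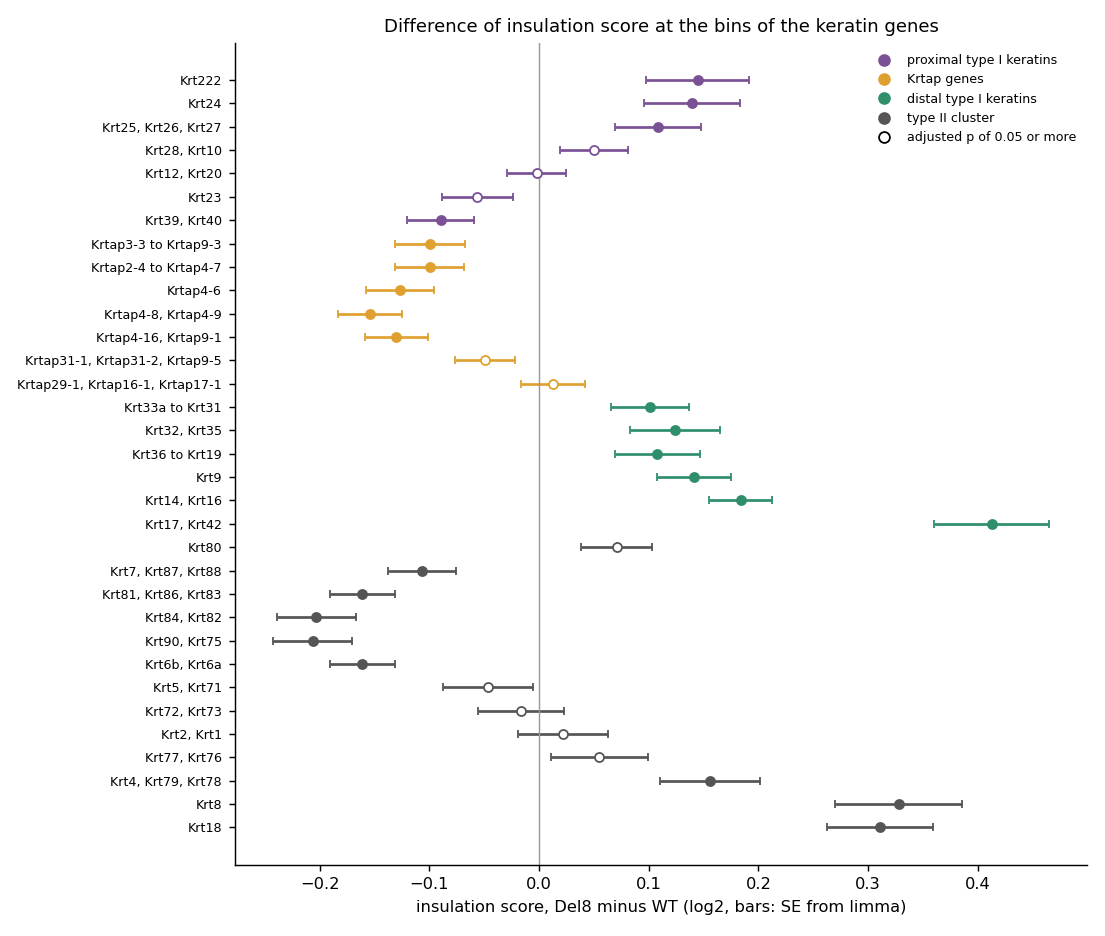
Difference of insulation score, Del8 minus WT (x axis, log2), at each of the 33 scored keratin bins in chromosome order (y axis, from Krt222 at the top to Krt18 at the bottom). Bars are the SE from limma, filled points have an adjusted p under 0.05, and colours mark the blocks. The largest rises are 0.41 at Krt17 and Krt42 and 0.33 at Krt8, both at the higher-coordinate end, and Krt80 at the other end of type II is an open point.

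The depth of each cluster, from its highest score to the boundary at its higher-coordinate end, was smaller in Del8. It was 3.09, 2.98 and 2.75 in WT, against 2.24, 2.24 and 2.21 in Del8 for type I. For type II it was 2.32, 2.30 and 2.21 in WT, against 1.88, 1.83 and 1.84 in Del8. The groups did not overlap in either cluster (exact permutation over libraries, two-sided p = 0.10, the lowest possible with 3 libraries a group). The spread within Del8 was small, with SDs of 0.018 and 0.026 against 0.17 and 0.061 in WT.

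Contact was then averaged over blocks of bin pairs and divided by the mean balanced contact of the chromosome at the same distance (observed over expected, O/E). For 15 such regions the groups were compared by exact permutation, two-sided, which can give no p below 0.10, and no region had an adjusted p below 0.17. The flank is 500 kb on the side named.

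The strongest contact of the type I cluster joined its ends. The keratins on the lower-coordinate side (Krt222 to Krt40) and those on the higher-coordinate side (Krt33a to Krt42), with the Krtap genes between them, had an O/E of 3.49, 3.40 and 3.13 in WT. In Del8 it was 2.80, 2.73 and 2.70, so the groups did not overlap and contact was 1.22-fold lower in the mean. Within the lower-coordinate keratins O/E was only 0.86 ± 0.035 in WT and 0.87 ± 0.036 in Del8, and within the higher-coordinate ones 1.10 ± 0.033 and 1.06 ± 0.007, both with overlapping groups. Contact of the Krtap genes with the higher-coordinate keratins was 1.52 in the mean of either group. Their contact with the lower-coordinate keratins was 1.60, 1.43 and 1.46 in WT, against 1.39, 1.38 and 1.39 in Del8. Over the whole cluster O/E was 1.81, 1.75 and 1.71 in WT, against 1.62, 1.60 and 1.58 in Del8.

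**Figure D3:**
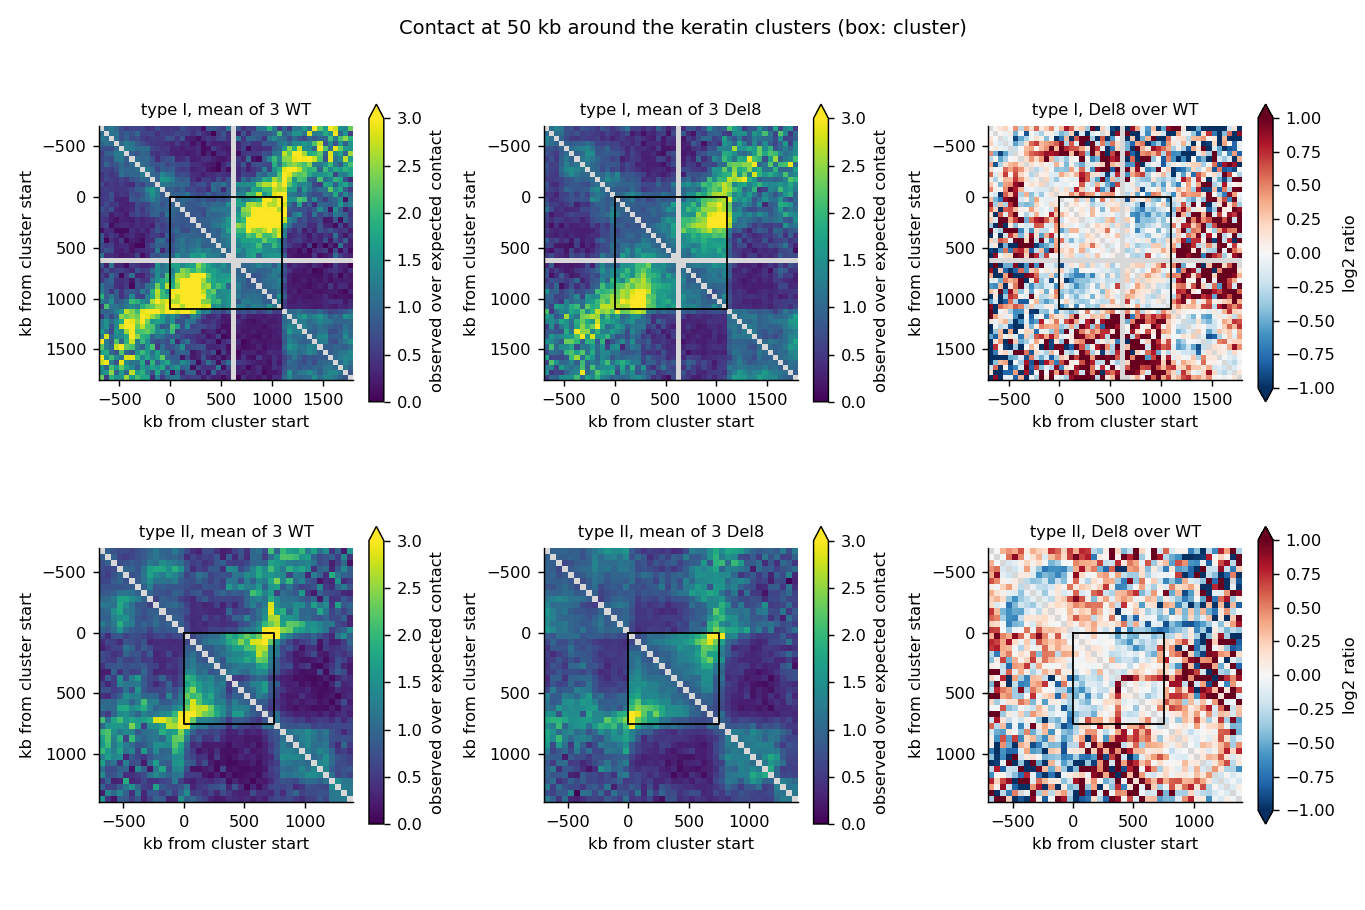
Observed over expected contact of 50 kb bin pairs around the type I (top) and type II (bottom) clusters: mean of 3 WT libraries, mean of 3 Del8 libraries, and their log2 ratio, with both axes in kb from the cluster's start. The box marks the cluster and grey marks pairs not usable. The bright corner of the type I box, where its ends meet, has a mean of 3.34 in WT and 2.75 in Del8, and the dark field past the higher-coordinate edge has 0.539 and 0.678.

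Across the boundary contact was higher in Del8. The type I cluster and its higher-coordinate flank had an O/E of 0.50, 0.55 and 0.56 in WT and 0.68, 0.68 and 0.67 in Del8, a 1.26-fold mean difference with groups that did not overlap. Towards the lower-coordinate flank O/E was 0.83 ± 0.04 in WT and 0.85 ± 0.02 in Del8, and the groups overlapped. The flanks met each other across the cluster at 1.89, 2.16 and 1.81 in WT, against 1.73, 1.67 and 1.77 in Del8. Under the looser screen this flank to flank difference, -0.23, was 0.00061.

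In the type II cluster contact was lower within the cluster and higher past Krt18, with smaller differences than in type I. Within it O/E was 1.42, 1.44 and 1.44 in WT, against 1.35, 1.37 and 1.34 in Del8. Its contact with the higher-coordinate flank, past Krt18, was 0.42, 0.42 and 0.45 in WT, against 0.49, 0.50 and 0.50 in Del8, a 1.16-fold mean difference. From flank to flank across the keratins O/E was 1.17, 1.19 and 1.25 in WT, against 0.98, 1.00 and 0.99 in Del8, 1.22-fold lower in the mean. The groups did not overlap in these 3 regions. Without the partly lost Krt6a and Krt6b bin the differences were -0.106, 0.0617 and -0.212, against -0.0842, 0.0674 and -0.213 with it. Towards the lower-coordinate flank, past Krt80, O/E was 0.959, 0.928 and 0.935 in WT, against 0.895, 0.926 and 0.922 in Del8. These groups just failed to overlap, and the difference of -0.0265 was -0.0139 without the Krt6a and Krt6b bin (exact permutation p = 0.50). The contact of the Krt8 and Krt18 bins with the rest of the type II genes did overlap, at 1.60 ± 0.06 in WT and 1.56 ± 0.05 in Del8.

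**Figure D4:**
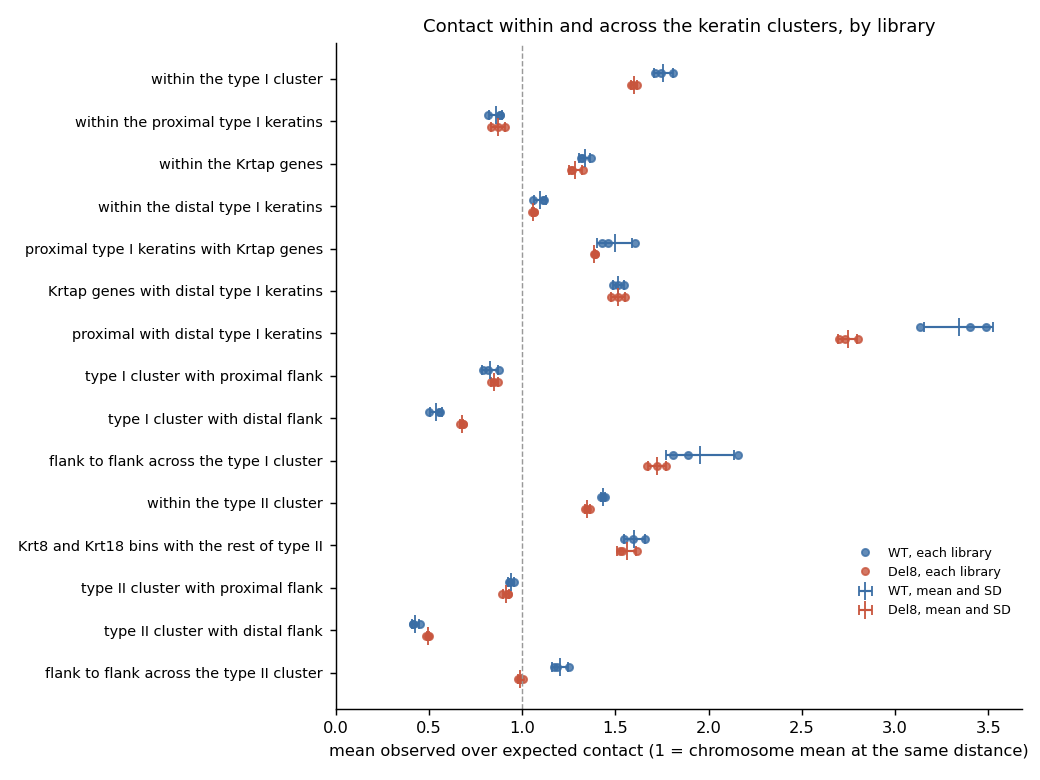
Mean observed over expected contact (x axis, 1 is the chromosome's mean at the same distance) of each region of the keratin clusters (y axis), with a point for each library and a bar for the mean and SD of 3 libraries per group. The type I ends (proximal with distal, for lower and higher coordinates) lie between 3.13 and 3.49 in WT and between 2.70 and 2.80 in Del8, and contact with the distal flanks is higher in all Del8 libraries.

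Contacts of single bins show where each gene's share went. Of the contacts of the Krt17 and Krt42 bin within 1 Mb, 20.5%, 19.8% and 21.7% in WT went past the cluster on the higher-coordinate side, and 26.9%, 25.5% and 28.2% in Del8 did. The Krt14 and Krt16 bin, 1 bin further in, sent 14.1%, 13.7% and 12.8% there in WT and 18.8%, 19.7% and 19.1% in Del8. Krt80, at the other end of the type II cluster, sent 33.6%, 31.8% and 33.4% of its contacts to the lower-coordinate flank in WT and 40.1%, 40.4% and 39.5% in Del8. In these 3 bins all Del8 libraries exceeded all WT libraries. On the higher-coordinate side of type I the same held at each bin from that of Krtap31-1 to that of Krt9. How many of all autosomal bins had raw shares without overlap was not counted. At Krt8 and Krt18 the shares were less uniform. The Krt18 bin sent 39.3%, 36.6% and 30.7% past the cluster in WT and 33.4%, 34.1% and 34.0% in Del8, and the Krt8 bin 18.3%, 13.9% and 15.6% against 17.6%, 17.9% and 16.6%. The groups overlapped at both, with WT replicate 1 highest. Farther in, the share past the higher-coordinate end was higher in all Del8 libraries at the bins starting with Krt84, Krt90, Krt5, Krt72, Krt2, Krt77 and Krt4. At Krt2 its mean was 6.6% in WT and 9.7% in Del8. So it was at the Krt6a and Krt6b bin, where WT replicate 1 held 310 contacts within 1 Mb. The groups overlapped at Krt7 and Krt81, and at Krt80 all Del8 libraries were lower (6.6% and 6.1%). For the bins of Krt17, Krt14, Krt80, Krt8 and Krt18 these shares rest on raw counts of 936 to 3515 contacts per bin and library. The shares were not balanced, and with 3 libraries a group no exact permutation p can fall below 0.10. At the bins starting with Krt7, Krt81, Krt84 and Krt90 the raw share towards the lower-coordinate flank was also higher in all Del8 libraries. At Krt7 its mean was 17.3% in WT and 21.4% in Del8. It was lower in all Del8 libraries at Krt18 (14.9% and 11.6%), and the groups overlapped at the other type II bins. In the balanced map the mean O/E of the whole cluster with that flank was 0.941 in WT and 0.914 in Del8. This difference shrank without the Krt6a and Krt6b bin, as given above. Why raw shares and balanced contact differed was not tested.

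**Figure D5:**
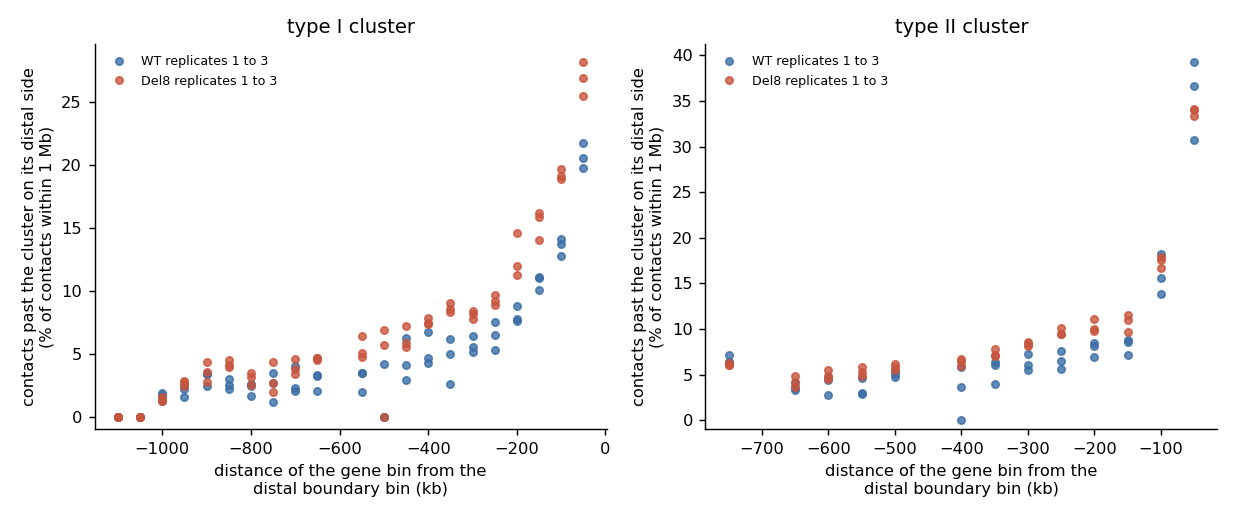
Percentage of each keratin bin's contacts within 1 Mb that lie past the cluster on its higher-coordinate (distal) side (y axis), against the bin's distance in kb from the boundary bin there (x axis), 1 point per library. At the last type I bin (Krt17 and Krt42) Del8 lies between 25.5% and 28.2% and WT between 19.8% and 21.7%; at the last type II bin (Krt18) the groups overlap.

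Single pairs of 50 kb bins carried few calls. Of 299869 pairs tested on the autosomes 100 kb to 1 Mb apart, 0.996% rose and 0.929% fell. Of the same 299869 pairs, 44946 had an unadjusted p under 0.05 (edgeR), the background for such counts in the windows. In the type I window 0 of 279 pairs rose and 1 fell, and 38 had an unadjusted p under 0.05. In the type II window 3 of 199 rose and 2 fell, and 40 had an unadjusted p under 0.05. Both counts are small beside the number tested. The median log2 difference was also read for some classes of pairs, without a test. It was 0.49 over 20 pairs of a higher-coordinate type I keratin bin with the flank beyond it, -0.35 over 41 pairs of a lower- with a higher-coordinate type I keratin bin, and 0.23 over 38 pairs of the type II cluster with its higher-coordinate flank, against 0.00 over all pairs tested.

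The type I pair that fell joined the bin of Krt28 and Krt10 to that of Krt17 and Krt42, 900 kb away. It had 51, 43 and 56 contacts in WT and 82, 55 and 42 in the deeper Del8 libraries, and its log2 change at equal depth and distance was -0.66 (SE 0.19, edgeR, adjusted p = 0.043). Among the type II pairs, Krt7 with Krt1 and Krt2 fell by 0.65 (51, 48 and 78 contacts in WT, 82, 59 and 52 in Del8, adjusted p = 0.031). The bin between Krt80 and Krt7 fell with Krt72 and Krt73 by 0.58 (adjusted p = 0.016). Krt80 gained contact with the bin of Acvr1b outside the cluster (34, 29 and 47 in WT, 130, 91 and 65 in Del8, log2 0.70, adjusted p = 0.022), and Krt18 with the bin of Krt4, Krt79 and Krt78 (37, 53 and 56 in WT, 162, 97 and 84 in Del8, log2 0.56, adjusted p = 0.045). The largest rise, the Krt6a and Krt6b bin with Krt72 and Krt73 (0, 38 and 46 in WT, 115, 94 and 78 in Del8, log2 1.13, adjusted p = 0.0011), rested on the 0 of WT replicate 1. Without that library it was 0.59 and did not pass, and the windows then had 1 rise and 0 falls.

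Calls on pairs also turned on other libraries. Without WT replicate 3 the windows had 7 rises and 5 falls, without Del8 replicate 1 there were 1 and 1, without Del8 replicate 2 there were 1 and 2, and without Del8 replicate 3 there were 2 and 0. Over all 299869 pairs the rises and falls then numbered 2232 and 2010, 1043 and 1020, 1218 and 1158, and 1573 and 1442, in the same order. DESeq2 called 0 of the 478 pairs of the windows, with 36 at an unadjusted p under 0.05, and over all pairs it called 460 rises and 971 falls.

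At 100 kb each pair holds more contacts, and more were called throughout: 7.59% of 87291 pairs rose and 6.51% fell. In the type I window 3 of 69 pairs rose and 8 fell. Of the 9 pairs that join the ends of the cluster, 5 fell, with a median log2 difference of -0.32. The largest fall joined the 100 kb bin of Krt25 to Krt10 with that of Krt33a to Krt35, from 118, 143 and 159 contacts in WT to 213, 185 and 123 in Del8 (log2 -0.62, edgeR, adjusted p = 3.4e-05). The pair of Krt36 to Krt9 with the flank genes P3h4 to Acly rose, from 22, 32 and 45 contacts to 129, 97 and 91 (log2 0.92, adjusted p = 0.00014). In the type II window 4 of 45 pairs rose and 6 fell. The pair of Krt80 with Krt5 and its neighbours fell by 0.43 (266, 240 and 326 contacts in WT, 473, 340 and 264 in Del8, adjusted p = 0.00011).

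Compartments were read from an eigenvector of the contact map at 250 kb, scaled to SD 1 on each chromosome. Among the leading eigenvectors of each library and chromosome, that with the strongest correlation with gene density was taken. Its sign was set positive towards gene-dense chromatin. The 4 bins from Krt24 to Krt16 were negative in WT, at -0.38 ± 0.10, -0.64 ± 0.07, -0.58 ± 0.16 and -0.34 ± 0.09 in chromosome order. The next bin, with Krt17 and Krt42, was positive at 0.91 ± 0.07. The type II bins were positive in WT, from 0.24 ± 0.20 at the bin of Krt84 to Krt71 to 1.92 ± 0.15 at the bin that starts with Krt18. In Del8 the bin of Krt33a to Krt16 stood at 0.13, -0.04 and 0.11, after -0.43, -0.31 and -0.27 in WT (unadjusted p = 0.013, limma, adjusted p = 0.25). The groups did not overlap there or at the Krt17 bin (0.88, 0.98 and 0.85 in WT, 1.13, 1.27 and 1.24 in Del8, adjusted p = 0.32). No keratin bin passed (0 of 10, 2 at an unadjusted p under 0.05). Of all 5586 bins 0.0179% passed, and 756 had an unadjusted p under 0.05 (limma). How many of all bins had groups without overlap was not counted.

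Other genes of keratinised epithelia gave a frame for these values. Their counts are read against the shares for bins with a gene start. Of 15 desmosome genes, which anchor keratin filaments, 8 had a score. They had 3 rises and 2 falls over 8 bins, with Jup and Pkp3 (0.15) up and Ppl, the filament linker periplakin, down by 0.26. The rise at Jup is that beside the type I boundary, given above, and is not separate from it. Of 16 bins of epithelial transcription factors 11 rose and 0 fell, with Ovol2, a repressor that maintains epithelial identity, highest at 0.47. Of 13 bins of other intermediate filament genes 8 rose and 0 fell, led by Synm (synemin) at 0.38. Of 33 Krtap genes placed outside the clusters only 8 had a score, and their 6 bins had 0 rises and 4 falls. These bins lie close together at 1 place on chromosome 7 and 1 on chromosome 10. They share bin pairs, so the falls are not separate results. The epidermal differentiation complex, the source of cornified envelope proteins, had 22 genes placed and 0 bins with a score, so it could not be compared. Medians were 0.053 for desmosome genes, 0.11 for transcription factors, 0.098 for other filaments and -0.12 for other Krtap genes, against 0.053 over all bins with a gene start.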

How the data were processed

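The authors deposited raw contact counts of pairs of 50 kb bins on the same chromosome, 1 file per library, and the submitters' processing notes name the build mm10. How reads were aligned and filtered was not given in the sources used here. Contacts between chromosomes were not analysed here. The submitters speak of biological replicates, and the numbers in the titles named the libraries. Same-numbered libraries did not deviate together (correlations of their deviations from the group means -0.022, -0.020 and -0.068), so the numbers were not used as pairs.

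Of 47875 autosomal bins with contacts, 27805 (58.1%) were usable, which required of each library a coverage of at least 0.5 times the third highest and above 0.1 of its own scale. Iterative correction, without the diagonal, balanced the maps. Scores needed 50% of the 500 kb square. Boundaries were minima with a prominence of 0.2 on the summed map. Scores and eigenvectors were tested with limma 3.58.1 and pairs of raw counts with a mean of 10 or more with the quasi-likelihood test of edgeR 4.0.16 (R 4.3.3), with an offset per library, chromosome and distance. P-values were adjusted by Benjamini-Hochberg over all bins or pairs of the autosomes, with a threshold of 0.05, and single values per library were compared by exact permutation. Python 3.11.15 with numpy 2.4.6, scipy 1.17.1 and pandas 2.3.3 made the maps. The limma, edgeR and boundary steps were tested on simulated data. DESeq2 1.42.0, other squares, screens, offsets and bin sizes, and leaving out libraries were the alternatives.

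RefSeq gave gene positions (lower coordinates) and promoters. At 50 kb a bin does not resolve single genes or CTCF sites, and bins short of contacts in any library were left out. Named were widely known keratins, the first and last Krtap gene, boundaries in the windows, the 3 bins of each cluster and the 3 pairs of each window with the largest called rise and fall; other bins and the 100 kb pairs were named after their values were seen. The members, the gene lists, the screen and the maps' settings were chosen with earlier results of these data known.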

Additional observations from a re-analysis of the deposited data

How the results depend on the processing

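Directions at the edges of the clusters held, while counts of calls did not. For insulation scores, the share of all autosomal bins called under each alternative was not counted. The rises at Krt17 with Krt42, at both boundaries beyond the clusters and at Krt8 and Krt18 kept their sign under every square, screen, balancing, centring and left-out library that was run, though none was called under the looser screen. The replicate number as a block (replicate block) left the counts of called bins at 9 and 6 (type I) and 3 and 5 (type II), gave 3 and 4 pairs, and ended 1 call on a pair, that of Krt18 with Krt4. Taking the bin of the transcription start left the bin counts as they were.

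The 250 kb square gave 5 rises and 0 falls in type I and 3 falls in type II, and reversed Krt12 with Krt20 (0.021), Krt39 with Krt40 (0.018), the Krtap bins from Krtap3-3 (0.043), Krtap2-4 (0.067), Krtap4-6 (0.0062) and Krtap31-1 (0.022), Krt5 (0.12) and Krt72 (0.13). The 1 Mb square gave 1 rise and 8 falls in type II, and reversed Krt25 (-0.0034), Krt28 (-0.050), Krtap29-1 (-0.015), Krt2 (-0.064), Krt77 (-0.051) and Krt4 (-0.0091). The looser screen gave 0 rises and 0 falls in either cluster and 0 pairs each way, there and over all 407486 autosomal pairs, and reversed Krt25 (-0.090), Krt28 (-0.15), Krtap29-1 (-0.058) and Krt2 (-0.027). Its values for contact were -0.181 within the lower-coordinate type I keratins, -0.0455 for type I with the lower-coordinate flank and 0.000606 from flank to flank of type I. Without balancing type I had 4 rises, Krtap29-1 was at -0.014 and Krt2 at -0.017, and type II with its lower-coordinate flank differed by 0.0034. Centring moved Krtap29-1 to -0.0070, and an expected contact from all autosomes moved Krtap genes with the higher-coordinate keratins to 0.0442. Against WT replicate 3 alone type I had 2 rises and 2 falls and the windows 0 pairs each way. Krt28 was then at -0.0023, Krt2 at -0.060, Krt77 at -0.048, the lower-coordinate type I keratins at -0.0097 and type I with that flank at -0.0241.

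DESeq2 gave 0 rises and 0 falls among pairs, 100 kb bins 7 and 14, and offsets that carry the balancing factors, added after the data were seen, 5 falls. Relative to all contacts 0 member bins were short in a library, against 1 on the scale used. Leaving out each library gave 3 to 10 rises and 3 to 6 falls in type I, 3 to 5 rises in type II, 1 to 7 rises and 0 to 5 falls among pairs. The ranges that crossed 0 were -0.012 to 0.0064 at Krt12, -0.0061 to 0.032 at Krtap29-1, -0.062 to 0.020 at Krt72 and -0.027 to 0.062 at Krt2. In contact they were -0.0097 to 0.0285 within the lower-coordinate type I keratins and -0.0196 to 0.0174 for Krtap genes with the higher-coordinate ones. The cause of these changes was not tested. With 24038030 contacts in WT replicate 1, pairs of 50 kb bins in the windows held a mean of 26.4 (type I) and 34.4 (type II) contacts there, which limits single pairs more than regions.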

Other observations

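Beyond the lower-coordinate end of the type I window, several bins without keratins rose more than the first keratins did; they were named after their values were seen. The bin of Wipf2 went from -0.70 ± 0.04 in WT to -0.36 ± 0.01 in Del8 (difference 0.34, limma, adjusted p = 3.6e-06), and that of Casc3 and Rapgefl1 by 0.30 (adjusted p = 1.0e-05). The nearest boundary on that side, at Gjd3 and Top2a (chr11:98950001-99000000), ranked 300 of 1329 from the lowest WT score and rose by 0.15 (adjusted p = 0.0052). Between it and Krt222 the bin of Igfbp4 rose by 0.14 (adjusted p = 0.013), while the bins of Tns4 and Ccr7 were at -0.54 and -0.58 in WT and at -0.53 and -0.55 in Del8, and neither passed.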
